A study of Mus musculus with 6 samples.

Results

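Metalloproteases of the MMP, ADAM and ADAMTS families and the TIMP inhibitors were examined in A316 cells, an adenocarcinoma line of the mouse that carries a knockout of Cebpa. Members were taken by gene symbol from the array annotation: every symbol of the forms Mmp, Adam or Adamts followed by a number, and Timp1 to Timp4. This gave 78 genes of the 19937 named genes on the array: 22 MMPs, 34 ADAMs, 18 ADAMTSs and 4 TIMPs. Where a gene had several probe sets, the one with the highest mean over the 6 arrays was used, which applied to 3 members (Adamts3, Adamts9 and Adamts17).

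The 6 arrays hold RNA of a single cell line in 2 groups. The treated group (3 arrays) was given PTC-209, a small molecule used in the study to inhibit Bmi1, a Polycomb protein, dissolved in 0.5% DMSO. The control group (3 arrays) was given 0.5% DMSO only, so that both the Cebpa knockout and the solvent were common to all 6 arrays. The study concerns lung adenocarcinoma with low C/EBP alpha, and the comparison asks how transcripts differ under the Bmi1 inhibitor. The labels state neither a dose nor an exposure time. Nor do they say whether the arrays of a group stem from separate cultures, so the p-values refer to the spread of these arrays alone, and that spread may be technical. Arrays are named below by group and replicate number, such as DMSO 1.

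MMPs are secreted or membrane-bound zinc proteases that are made as inactive pro-enzymes and cleave collagens, proteoglycans and other matrix proteins. ADAMs sit in the cell membrane, where the catalytic ones release the outer parts of growth factors, cytokines, adhesion molecules and Notch receptors, while ADAMTSs are secreted and cut proteoglycans and procollagens. TIMPs bind the active site of these enzymes and block it, and TIMP2 also takes part, together with the membrane-type protease MMP14, in the activation of pro-MMP2. In carcinomas these enzymes are known for their part in invasion and in the supply of EGF receptor ligands.

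All values are log2 expression as deposited (RMA), given as mean ± SD of 3 arrays, and differences are PTC-209 minus DMSO on the log2 scale. A gene was said to rise or fall at an adjusted p under 0.05 (limma, Benjamini-Hochberg over 28192 probe sets). Brightness was read against the median of all probe sets tested, 4.33. This is a rough guide only, because the levels of different probes are not strictly comparable with each other. The arrays correlated at 0.992 to 0.996 within a group and at 0.970 to 0.974 between groups, taken across probe sets, which do not count as replicates. The epithelial nature of the line was checked on 13 markers. Of these, 8 were above the median in both groups: Epcam, Cdh1, Krt7, Krt8, Krt18, Krt19 and the lung markers Cldn18 (4.67 in DMSO, 4.57 with PTC-209) and Sftpa1 (4.33 and 4.51, close to the median in DMSO). The lung lineage markers Nkx2-1, Sftpb, Sftpc, Scgb1a1 and Foxj1 were not.

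The promoters of 3 members that fell are shown first, as 300-base windows (250 bases before to 50 after the annotated start). They were searched for 3 motifs known from matrix protease and TIMP promoters. Of the 3, only Mmp10 held AP-1 and a TATA box, while Timp1 and Mmp14 held PEA3 alone. The set of windows used (RefSeq, build GRCm38.p6) covered 48 of the 78 members and lacked Adam12, Adamts6 and Adam9. Windows are printed in the direction of transcription. Capitals mark the AP-1 motif TGANTCA, the PEA3 motif AGGAAG, to which Ets factors bind, and the TATA box TATAAA, each searched on both strands. N stands for any base, so the search was wider than the usual AP-1 site, which has C or G there.
Timp1, chrX:20869916-20870215, plus strand: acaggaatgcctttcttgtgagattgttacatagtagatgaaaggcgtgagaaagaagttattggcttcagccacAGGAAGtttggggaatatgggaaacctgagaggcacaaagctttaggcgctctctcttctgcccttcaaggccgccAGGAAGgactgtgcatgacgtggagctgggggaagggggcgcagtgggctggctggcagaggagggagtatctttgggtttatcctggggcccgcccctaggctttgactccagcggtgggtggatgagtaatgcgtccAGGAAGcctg
Mmp14, chr14:54431348-54431647, plus strand: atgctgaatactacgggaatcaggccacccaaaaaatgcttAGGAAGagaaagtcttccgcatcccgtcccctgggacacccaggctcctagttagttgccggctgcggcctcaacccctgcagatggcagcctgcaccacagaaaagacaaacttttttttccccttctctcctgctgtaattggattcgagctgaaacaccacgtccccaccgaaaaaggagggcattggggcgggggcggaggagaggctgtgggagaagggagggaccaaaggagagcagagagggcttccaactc
Mmp10, chr9:7502092-7502391, plus strand: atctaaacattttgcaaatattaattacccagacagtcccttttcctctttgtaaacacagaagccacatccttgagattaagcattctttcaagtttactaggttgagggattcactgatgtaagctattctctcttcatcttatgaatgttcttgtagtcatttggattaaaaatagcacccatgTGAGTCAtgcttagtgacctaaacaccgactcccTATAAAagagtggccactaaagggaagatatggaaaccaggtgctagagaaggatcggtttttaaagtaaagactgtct

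Mmp10 had an AP-1 match at bases -63 to -57 and a TATA box at -29 to -24 from its start. Timp1 had 3 PEA3 matches, at -175, -99 and 41, and no exact AP-1 match, and Mmp14 had 1 PEA3 match at -209. Over all 32851 RefSeq windows, 7.81% held the AP-1 motif, 35.4% the PEA3 motif and 13.6% the TATA box. Among the 9 members that fell and have a window, 2 held AP-1 (Mmp10 and 1 of the windows of Adam19), 4 held PEA3 (also Adam10 and Adam19) and 1 held the TATA box. A match is a description of these letters and does not show that a factor binds there.

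With PTC-209, 11 members fell and 2 rose, while 65 did not pass the threshold. The falls were Adam12, Timp1, Adam8, Mmp10, Adamts6, Mmp14, Timp2, Adam19, Mmp11, Adam10 and Mmp24, and the rises Adam9 and Adamts9. Among all named genes 13.7% fell and 12.9% rose (26.6% in either direction), and among the members the shares were 14.1% and 2.56%. The share of members that fell was close to that of all genes. Fewer cells of a kind and less RNA per cell cannot be told apart in bulk RNA. The median difference over the 78 members was -0.02 on the log2 scale, against 0.03 for all genes. At least 2-fold falls numbered 6 of 78 (Adam12, Timp1, Adam8, Mmp10, Adamts6 and Mmp14), while 4.30% of all genes fell by that much. Of the 23 members above the median brightness 5 did, against 822 of the 10733 named genes above it. Mmp14 only just reached 2-fold (log2 difference -1.002) and did not without DMSO 1 (-0.864). Adamts6 did not reach it without PTC-209 1 (-0.898). The PTC-209 arrays lay wholly below the DMSO arrays for 13 members (19.4% of all genes) and wholly above for 9 (21.1% of all genes).

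**Figure D1:**
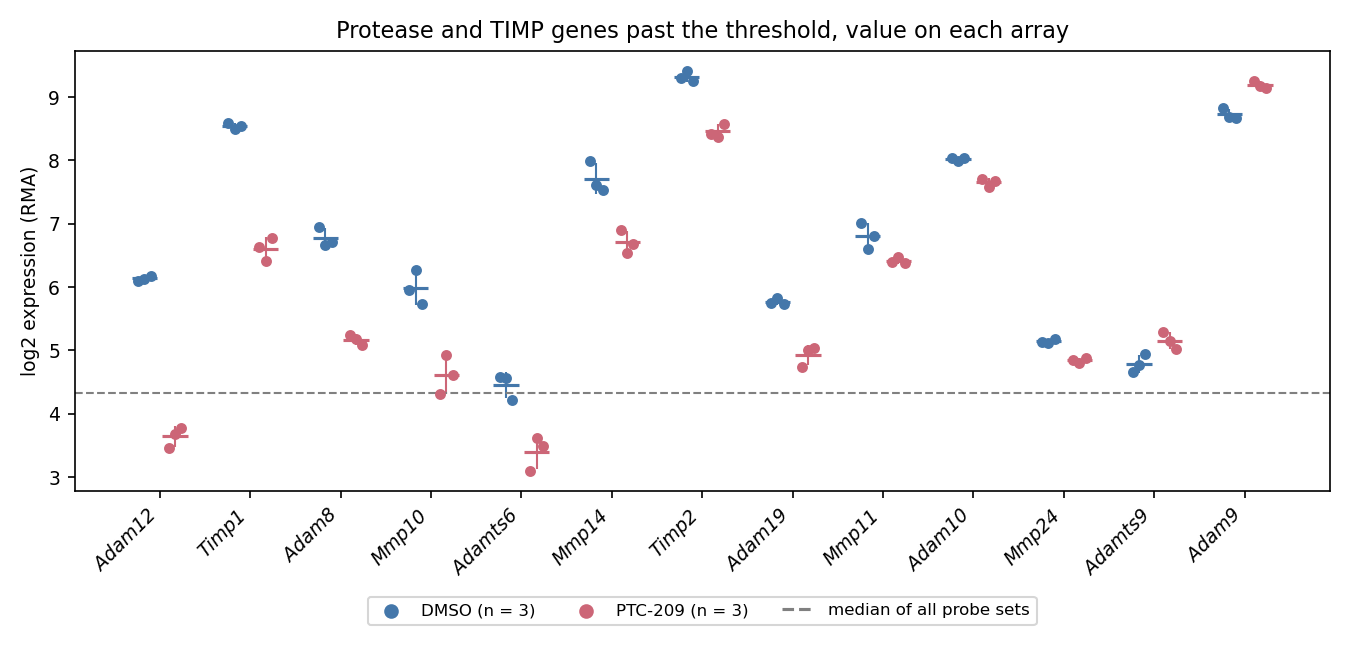
Log2 expression (RMA) of the 13 members past the threshold, ordered by their difference, with 1 point per array (replicates 1, 2 and 3 from left to right), blue for DMSO and red for PTC-209. Horizontal bars are means of 3 arrays, vertical bars SDs, and the dashed line is the median of all probe sets, 4.33. The groups do not overlap for any of the 13 genes, and Adam12 and Adamts6 lie below the dashed line after PTC-209.

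All but 1 of the members that rose or fell were bright. By the mean of 6 arrays 23 members were above the median of all probe sets and 55 were not. Those above it were the MMPs Mmp2, Mmp10, Mmp11, Mmp14 and Mmp24, the inhibitors Timp1 and Timp2, and 9 ADAMs (Adam8, Adam9, Adam10, Adam12, Adam15, Adam17, Adam19, Adam33 and Adam34l). The ADAMTSs above it were Adamts1, Adamts3, Adamts7, Adamts9, Adamts10, Adamts14 and Adamts17. The member nearest above the line was Mmp2 at 4.36 and the nearest below it Mmp13 at 4.14. Of the 23, 10 fell (43.5%) and 2 rose (8.70%). For all named genes above the median, 23.5% fell and 22.1% rose (45.6% in either direction). Of the 55 others 1 passed, Adamts6, whose DMSO level alone was above the median.

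**Figure D2:**
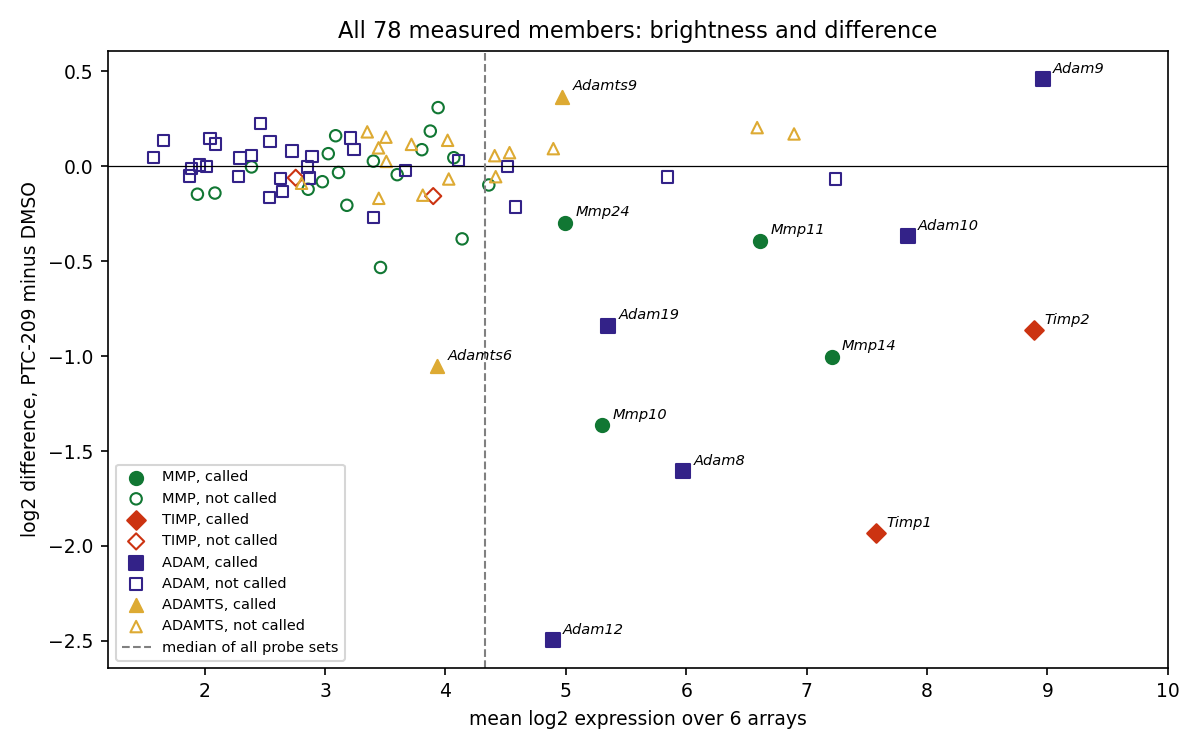
Mean log2 expression over the 6 arrays (horizontal axis) against the log2 difference, PTC-209 minus DMSO (vertical axis), for the 78 members, with filled symbols for those past the threshold. Of the 13 filled symbols 12 lie to the right of the dashed median of 4.33, and 11 lie below 0.

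Both TIMPs that were above the median fell. Timp1, a secreted inhibitor of most MMPs, read 8.59, 8.50 and 8.54 on the DMSO arrays and 6.64, 6.41 and 6.78 on the PTC-209 arrays. Every treated array was thus lower than every control array by more than the spread within either group. The level went from 8.54 ± 0.044 to 6.61 ± 0.18, a 3.82-fold fall (95% confidence interval 3.21 to 4.55, limma adjusted p = 2.46e-06). Timp2 read 9.30, 9.41 and 9.25 in DMSO and 8.42, 8.37 and 8.58 with PTC-209. It went from 9.32 ± 0.083 to 8.46 ± 0.11, a 1.82-fold fall (interval 1.56 to 2.13, limma adjusted p = 0.000186).

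Timp3, which binds to the matrix and also inhibits several ADAMs and ADAMTSs, was under the median in both groups and did not pass the test. It read 4.04, 4.01 and 3.89 in DMSO and 3.68, 4.04 and 3.75 with PTC-209, so the groups overlap (log2 difference -0.16, interval -0.42 to 0.10, limma adjusted p = 0.414). Timp4 lay lower still against the median, at 2.85, 2.69 and 2.82 in DMSO and 2.76, 2.63 and 2.79 with PTC-209 (log2 difference -0.06, interval -0.28 to 0.16, limma adjusted p = 0.743). Their intervals leave room for small changes in either direction.

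Among the MMPs, 4 of 22 fell and 0 rose in the limma fit (at an unadjusted p under 0.05, 6 were lower and 1 higher). The falls were 18.2% of the MMPs, against 13.7% of all named genes. They came from the 5 MMPs above the median brightness, where 23.5% of all named genes fell. Mmp10, stromelysin 2, which cleaves proteoglycans and fibronectin, fell most. It read 5.96, 6.27 and 5.73 on the DMSO arrays and 4.32, 4.92 and 4.62 on the PTC-209 arrays, with the widest spread among the MMPs that fell and no overlap. The level went from 5.98 ± 0.27 to 4.62 ± 0.30, a 2.57-fold fall (interval 1.96 to 3.39, limma adjusted p = 0.000358). Mmp14, the membrane-anchored collagenase MT1-MMP, read 7.99, 7.61 and 7.53 in DMSO and 6.90, 6.54 and 6.68 with PTC-209. DMSO 1 stood above the other controls, and the lowest control was still above the highest treated array. The fall was 2.0-fold (from 7.71 ± 0.24 to 6.71 ± 0.18, interval 1.60 to 2.51, limma adjusted p = 0.000693).

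The other falls among the MMPs were smaller. Mmp11, stromelysin 3, which is activated inside the cell by furin, read 7.02, 6.60 and 6.81 in DMSO and 6.40, 6.48 and 6.37 with PTC-209 (1.31-fold lower, interval 1.09 to 1.58, limma adjusted p = 0.0386). Mmp24, the membrane-type MMP known best from nervous tissue, read 5.13, 5.12 and 5.18 in DMSO and 4.86, 4.80 and 4.88 with PTC-209 (1.23-fold lower, interval 1.07 to 1.41, limma adjusted p = 0.0363). Both calls were narrow. That of Mmp11 ended when DMSO 1, DMSO 3 or any 1 PTC-209 array was left out (adjusted p up to 0.110), and that of Mmp24 when any 1 of the 6 arrays was (0.0529 to 0.124). The MMPs that fell therefore numbered 2 when DMSO 1, PTC-209 1 or PTC-209 3 was left out.

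The gelatinases, which cut denatured collagen and type IV collagen, did not pass the test. Mmp2 read 4.65, 4.33 and 4.25 in DMSO and 4.41, 4.23 and 4.30 with PTC-209, overlapping and at the median brightness (log2 difference -0.10, interval -0.37 to 0.18, limma adjusted p = 0.661). Without DMSO 1 its difference was 0.022, of the opposite sign. Mmp9 was under the median, at 2.98, 3.07 and 3.33 in DMSO and 3.05, 3.17 and 3.06 with PTC-209 (log2 difference -0.03, interval -0.29 to 0.22, limma adjusted p = 0.890). Without DMSO 3 it was 0.067. The 4 collagenases (Mmp1a, Mmp1b, Mmp8 and Mmp13), the matrilysin Mmp7 and the remaining MMPs were under the median as well.

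In gene order along chromosome 9 a run of 10 MMP genes lies with no other protein-coding gene between them in RefSeq: Mmp13, Mmp12, Mmp1b, Mmp3, Mmp1a, Mmp10, Mmp8, Mmp27, Mmp20 and Mmp7. Of these neighbours Mmp10 was the only one above the median brightness and the only one past the threshold. Mmp3, stromelysin 1, read 4.0, 3.68 and 3.49 in DMSO and 3.04, 3.54 and 3.0 with PTC-209, overlapping through PTC-209 2 (log2 difference -0.53, limma adjusted p = 0.0539). Its adjusted p was under the threshold when DMSO 3 or PTC-209 2 was left out. Mmp13, collagenase 3, read 4.64, 4.21 and 4.14 against 3.92, 3.97 and 3.95, with no overlap (log2 difference -0.38, limma adjusted p = 0.0731), and passed without DMSO 3. Mmp20, the enamel protease, lay the other way, from 3.58, 3.84 and 3.93 to 4.01, 4.03 and 4.25 (log2 difference 0.31, limma adjusted p = 0.102). Mmp1a and Mmp1b are close copies whose probes may read both.

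**Figure D3:**
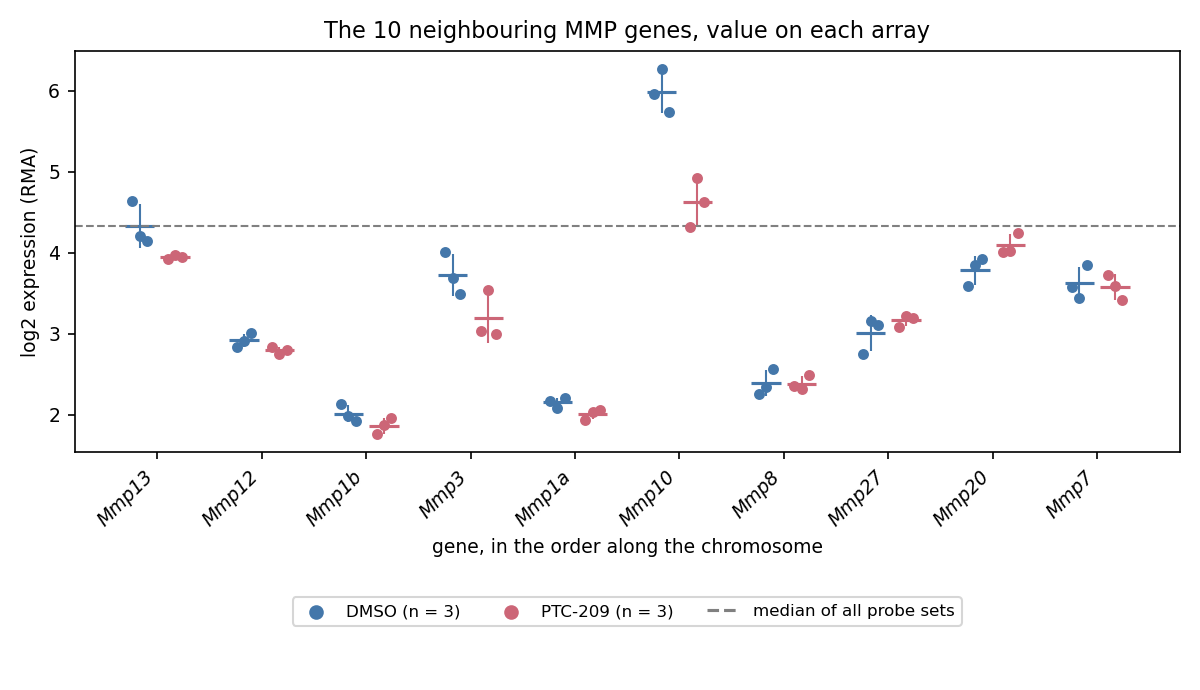
Log2 expression (RMA) of the 10 neighbouring MMP genes in their order along the chromosome, with 1 point per array, blue for DMSO and red for PTC-209 (bars: mean and SD of 3 arrays; dashed line: median of all probe sets, 4.33). The means of Mmp10 stand above the line in both groups and are lower with PTC-209, and among the other genes only Mmp13 has an array well above it, 4.64 in DMSO.

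The promoters of this run have letters in common. Of the 10 genes 8 had both an AP-1 match and a TATA box in a 300-base window, namely Mmp13, Mmp12, Mmp1b, Mmp3, Mmp1a, Mmp10, Mmp20 and Mmp7. The match of Mmp20 was TGAATCA, which lacks the C or G of the usual AP-1 site. In Mmp12 the TATA letters lay after the start, at bases 5 to 10. Of all RefSeq windows 1.54% held both, and 1 member outside the run did, Adam29. The genes of the run are relatives of each other, so their windows are not independent. The 100 bases before the start of 5 of them are shown for comparison with Mmp10 above, with the same motifs in capitals.
Mmp13, chr9:7272414-7272513, plus strand: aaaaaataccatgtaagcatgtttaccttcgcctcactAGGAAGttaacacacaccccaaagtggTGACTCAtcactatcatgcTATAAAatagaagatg
Mmp1b, chr9:7388027-7388126, minus strand: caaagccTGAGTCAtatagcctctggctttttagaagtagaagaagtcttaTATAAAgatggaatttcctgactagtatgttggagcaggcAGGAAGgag
Mmp3, chr9:7445722-7445821, plus strand: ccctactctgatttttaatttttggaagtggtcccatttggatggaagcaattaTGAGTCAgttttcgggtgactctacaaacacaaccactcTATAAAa
Mmp1a, chr9:7464041-7464140, plus strand: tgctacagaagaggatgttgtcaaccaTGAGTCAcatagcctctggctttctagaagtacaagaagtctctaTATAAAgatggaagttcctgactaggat
Mmp7, chr9:7691990-7692089, plus strand: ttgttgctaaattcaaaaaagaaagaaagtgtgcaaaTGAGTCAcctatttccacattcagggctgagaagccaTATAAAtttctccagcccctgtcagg

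In each of these stretches the AP-1 letters precede the TATA box on the strand of the gene, as in Mmp10. The AP-1 match began at -35 in Mmp13, -93 in Mmp1b, -46 in Mmp3, -73 in Mmp1a and -63 in Mmp7. In the same order the TATA letters of these stretches began at -16, -49, -7, -28 and -26. All 5 genes lay under the median brightness on average, and none of them passed the threshold. Of the genes of the AP-1 dimer, Fos fell by 1.02 on the log2 scale (from 5.35 ± 0.25 to 4.33 ± 0.16, limma adjusted p = 0.000552), and Jun and Fosl1 rose, Jun by 0.70.

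The ADAMs that shed surface proteins in somatic tissues held the largest fall of all members. Of 9 such ADAMs 4 fell (44.4%), 1 rose (11.1%) and 4 did not pass. Of the 9, 8 were above the median brightness, where 23.5% of all named genes fell and 22.1% rose. Adam12, which releases heparin-binding EGF-like growth factor and other ligands, read 6.10, 6.13 and 6.18 in DMSO and 3.46, 3.69 and 3.78 with PTC-209. The treated arrays lay under the median of all probe sets and the controls well above it, which makes the size of the fold uncertain. The log2 difference was -2.49 (SE 0.107, interval -2.74 to -2.25, limma adjusted p = 5.97e-07). Adam8, a sheddase of leukocytes and tumour cells, read 6.95, 6.67 and 6.72 in DMSO and 5.25, 5.19 and 5.08 with PTC-209. It was 3.05-fold lower (from 6.78 ± 0.15 to 5.17 ± 0.085, interval 2.57 to 3.60, limma adjusted p = 5.87e-06), with no overlap.

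Adam19, which processes neuregulin, read 5.75, 5.83 and 5.73 in DMSO and 4.75, 5.01 and 5.04 with PTC-209. Its level was 1.79-fold lower (interval 1.51 to 2.12, limma adjusted p = 0.000342). Adam10, the sheddase of Notch receptors and cadherins, fell by less. It read 8.04, 8.0 and 8.03 in DMSO and 7.70, 7.58 and 7.68 with PTC-209, narrow groups that do not overlap (1.29-fold lower, interval 1.12 to 1.49, limma adjusted p = 0.0141). Without PTC-209 2 its adjusted p was 0.0642. Adam9, a widely expressed membrane protease, went the opposite way, from 8.83, 8.69 and 8.68 to 9.25, 9.18 and 9.15. This was a 1.38-fold rise (from 8.73 ± 0.083 to 9.19 ± 0.055, interval 1.19 to 1.59, limma adjusted p = 0.00547). When a fold change above 1.2 was required, the calls of Adam9 (adjusted p = 0.196) and Adam10 (0.618) ended.

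Adam17, the enzyme that releases TNF and most EGF receptor ligands, did not pass the test. It read 7.35, 7.21 and 7.26 in DMSO and 7.26, 7.14 and 7.23 with PTC-209, groups that overlap in part: DMSO 2 lay within the treated range, and PTC-209 2 was the lowest array. The log2 difference was -0.07 (interval -0.28 to 0.14, limma adjusted p = 0.702), so a change of up to 0.28 lower or 0.14 higher lies within the interval. Adam15 (-0.06, interval -0.28 to 0.17) and Adam33 (-0.0023, interval -0.35 to 0.34) were also above the median and not called, and Adam28 was under it.

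Nearly all other ADAMs gave dim values. Adam11, Adam22 and Adam23, which have no protease activity and are known from neurons, lay under the median. Of the 22 further ADAMs, most of them known from testis, 21 lay under it. These 22 had differences between -0.27 and 0.23 on the log2 scale, and in the limma fit 0 passed the threshold in either direction (at an unadjusted p under 0.05, 1 was higher and 0 lower). Adam34l was the 1 above the median, and its groups overlap. Several of these genes are close copies (Adam1a and Adam1b, Adam6a and Adam6b, Adam26a and Adam26b, Adam34 and Adam34l), whose probes may read more than 1 gene, and 5 members are also named on 2 probe sets with several genes that were not used.

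Among the 18 ADAMTSs 1 fell and 1 rose (5.56% each), against 13.7% and 12.9% of all named genes. Adamts6, a secreted protease known from heart development, read 4.58, 4.56 and 4.22 in DMSO and 3.09, 3.62 and 3.50 with PTC-209. The controls lay close to the median of all probe sets and the treated arrays under it (log2 difference -1.05, SE 0.156, interval -1.40 to -0.70, limma adjusted p = 0.000836). Adamts9, which cleaves versican and aggrecan, read 4.66, 4.76 and 4.94 in DMSO and 5.30, 5.15 and 5.02 with PTC-209 by its brightest probe set (1.29-fold higher, interval 1.08 to 1.54, limma adjusted p = 0.0435). Its direction depends on the probe set. The second brightest of 6 gave a log2 difference of -0.13 (limma adjusted p = 0.447), and none of the other 5 passed the threshold. The call also ended when DMSO 1, DMSO 2, PTC-209 1 or PTC-209 2 was left out (adjusted p 0.108 to 0.142), and 1 member then rose in place of 2.

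Adamts1, another protease of aggrecan and versican, was above the median and overlapped, at 7.07, 6.58 and 6.78 in DMSO and 7.14, 6.93 and 6.88 with PTC-209 (log2 difference 0.17, interval -0.14 to 0.48, limma adjusted p = 0.459). Adamts17 read 6.40, 6.53 and 6.53 against 6.63, 6.73 and 6.70, groups that do not overlap but whose difference of 0.20 did not pass (limma adjusted p = 0.162). Its 4 other probe sets did not pass either, and the dimmest of them had the opposite sign (-0.30). None of the 16 probe sets of Adamts3, a procollagen protease, passed the threshold. Adamts4, Adamts5, Adamts8, Adamts15 and Adamts20, grouped with Adamts1 and Adamts9 as proteases of aggrecan and versican, were under the median.

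**Figure D4:**
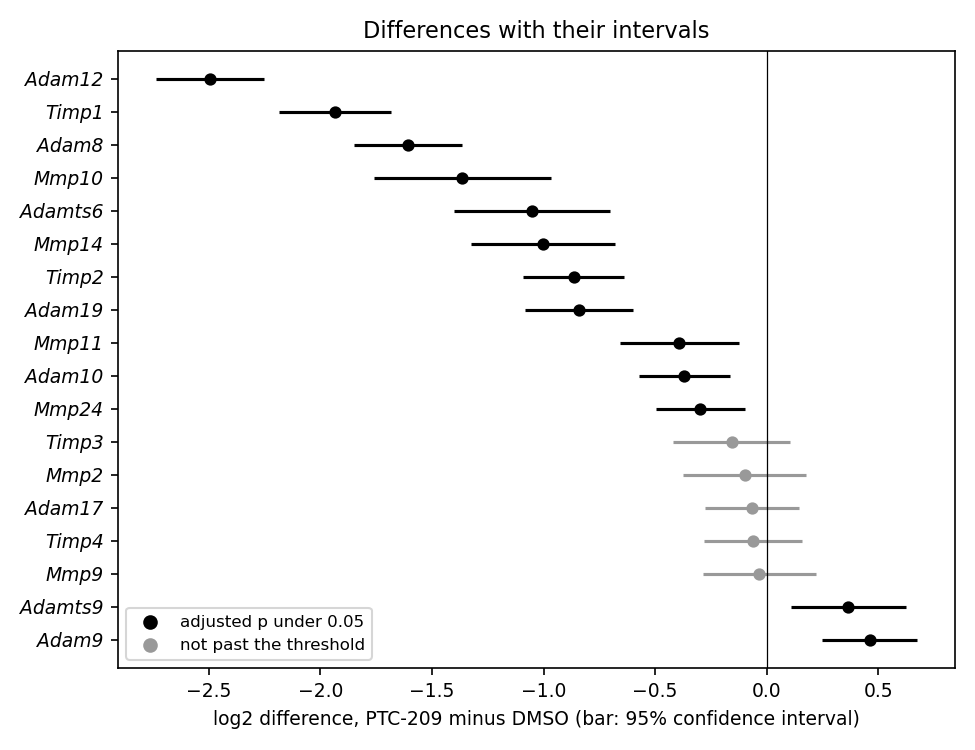
Log2 difference, PTC-209 minus DMSO (point), with its 95% confidence interval (bar) for 18 members: the 13 past the threshold (black) and the remaining TIMPs, gelatinases and Adam17 (grey). The intervals of Adam12, Timp1, Adam8 and Mmp10 lie wholly below those of Mmp11, Adam10 and Mmp24, and all 5 grey intervals include 0.

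The 8 largest falls, of Adam12, Timp1, Adam8, Mmp10, Adamts6, Mmp14, Timp2 and Adam19, passed the threshold under each of the 17 alternative settings, including the removal of each array. Each of these genes has only 1 probe set, so the settings on the choice of probe set could not change its values. The 65 members that were not called had adjusted p-values from 0.0539 to 0.995 and log2 differences from -0.53 to 0.31. In 9 of them the groups did not overlap. Over all named genes, called or not, the PTC-209 arrays lay wholly above in 21.1% and wholly below in 19.4%. Among the 9, PTC-209 was above DMSO in Adam24, Adamts8, Adamts17, Adamts20, Mmp17, Mmp20 and Mmp23, and below it in Mmp1a and Mmp13.

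The partners of these proteases were read from 7 lists with 132 genes, of which 126 were measured, 22 rose (17.5%) and 20 fell (15.9%). Among all named genes the shares were 12.9% and 13.7%. There were 14 rises when DMSO 2 or PTC-209 1 was left out. Among 12 measured activators of pro-enzymes 2 rose and 2 fell (16.7% each). Furin, the convertase that removes the pro-domain of ADAMs and membrane-type MMPs, went from 6.51 ± 0.087 to 6.91 ± 0.070 (log2 difference 0.40, limma adjusted p = 0.0137), and Plaur, the urokinase receptor, rose by 0.49. Plat, tissue plasminogen activator, fell by 0.55 on the log2 scale, and the serine protease Tmprss2 went from 4.87 to 3.90, under the median. This list had 0 rises when DMSO 2, DMSO 3 or PTC-209 1 was left out, and 4 without DMSO 1.

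Of 20 further inhibitors and cofactors 1 rose (5%) and 2 fell (10%), against 12.9% and 13.7% of all named genes. Reck, a membrane inhibitor of MMPs, was under the median in both groups and did not pass (2.98 ± 0.092 and 2.85 ± 0.079, limma adjusted p = 0.439). Bsg, or EMMPRIN, which induces MMPs in neighbouring cells, rose by 0.39 on the log2 scale (limma adjusted p = 0.0257), and of the 6 removals of an array that call held only without DMSO 1. Sparc, a matricellular protein, read 9.86, 9.80 and 9.78 in DMSO and 6.51, 6.51 and 6.25 with PTC-209, a 10.5-fold fall (limma adjusted p = 1.90e-07). Thbs1, thrombospondin 1, fell by 0.46 (limma adjusted p = 0.0394), and without DMSO 1, DMSO 3, PTC-209 2 or PTC-209 3 it did not pass and 1 gene of the list fell.

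Of 13 regulators of ADAMs 5 rose (38.5%) and 1 fell (7.69%), with a median log2 difference of 0.24 against 0.03 for all genes. Of the 13, 12 were above the median brightness, where 22.1% of all named genes rose and 23.5% fell. The list had 4 rises when DMSO 2, DMSO 3 or any 1 PTC-209 array was left out, and 2 with a minimum fold change of 1.2. Tspan5, a tetraspanin that escorts ADAM10, went from 7.43 ± 0.12 to 8.31 ± 0.057, a 1.84-fold rise (limma adjusted p = 0.000160). Tspan15, another tetraspanin partner of ADAM10, fell by 0.69 (limma adjusted p = 0.0139), and without DMSO 1, PTC-209 2 or PTC-209 3 it did not pass and 0 genes of the list fell. Rhbdf2, or iRhom2, which carries ADAM17 to the cell surface, rose 1.46-fold (from 5.79 ± 0.12 to 6.33 ± 0.17, limma adjusted p = 0.00721). Its relative Rhbdf1 differed by 0.02 and was not called (limma adjusted p = 0.943). Pacsin2 and Pacsin3, adaptor proteins of the ADAM tails, rose by 0.61 and 0.68 on the log2 scale, and Tspan14 was the other rise.

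**Figure D5:**
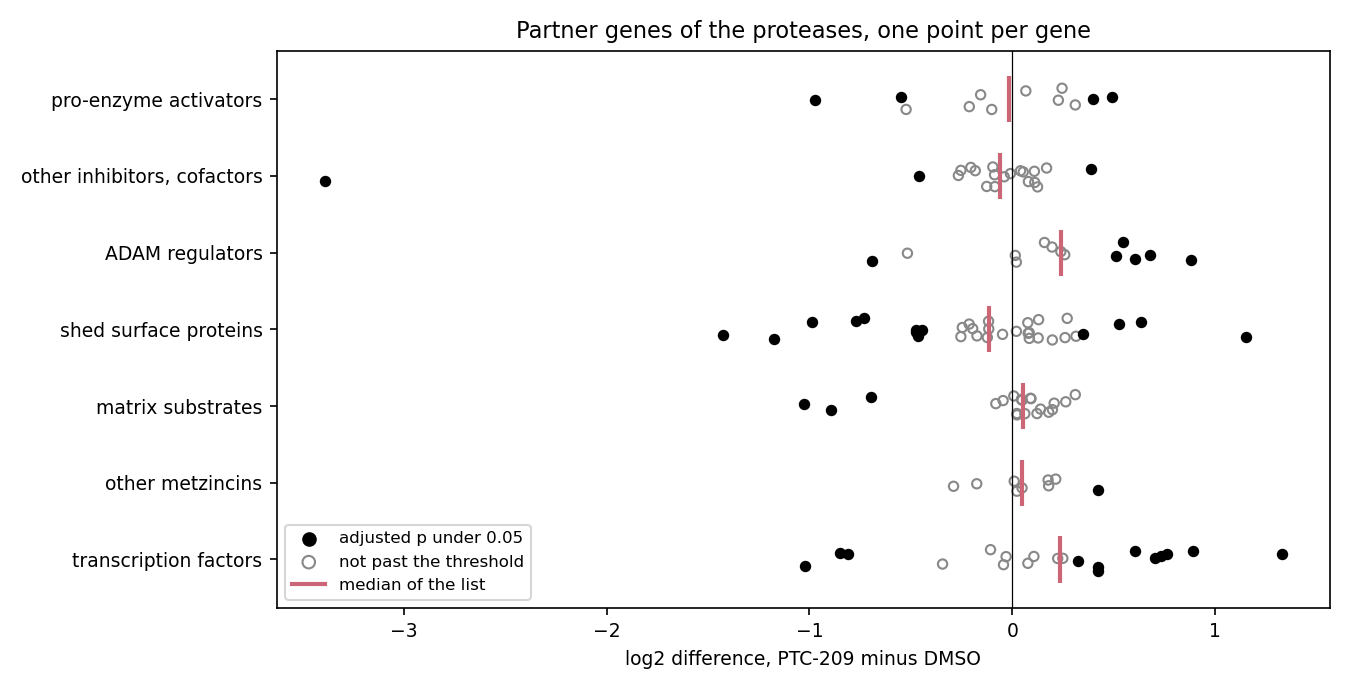
Log2 difference, PTC-209 minus DMSO, of the genes in 7 lists of partners of the proteases, with 1 point per gene (black: past the threshold; open: not) and a red bar at the median of the list. The medians lie between -0.12 (shed surface proteins) and 0.24 (ADAM regulators and transcription factors), and the black point farthest to the left is Sparc.

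Of 33 surface proteins known as substrates of ADAMs 9 fell (27.3%) and 4 rose (12.1%). Of the 33, 24 were above the median brightness, where 23.5% of all named genes fell and 22.1% rose. The receptor tyrosine kinase Axl fell 2.68-fold (from 8.65 ± 0.089 to 7.22 ± 0.068, limma adjusted p = 6.00e-06), the adhesion molecule Vcam1 2.25-fold and the membrane chemokine Cx3cl1 1.99-fold. The Notch ligand Jag1 rose 2.22-fold (from 5.72 ± 0.16 to 6.87 ± 0.21, limma adjusted p = 0.000172). Among 20 matrix substrates 3 fell (15%) and 0 rose in the limma fit. At an unadjusted p under 0.05, 3 were lower and 1 higher. Among all named genes 13.7% fell and 12.9% rose. The falls were fibronectin, Fn1 (1.86-fold lower), tenascin C, Tnc (from 4.62 to 3.59), and versican, Vcan (from 4.87 to 4.17). The treated levels of Tnc and Vcan were under the median. Without DMSO 3 the list had 1 rise. Of 9 other metzincins 1 rose (11.1%), Pappa2, which was under the median in both groups. It was not called by the mean of its probe sets, nor when DMSO 2, PTC-209 1 or PTC-209 3 was left out.

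Of 20 transcription factors of the AP-1, Ets and other families known to regulate such genes 9 rose (45%) and 3 fell (15%). Of the 20, 18 were above the median brightness, with the shares of 22.1% and 23.5% for all such genes. The list had 7 rises when DMSO 2, DMSO 3 or any 1 PTC-209 array was left out, and 7 under cyclic loess. With a minimum fold change of 1.2 it had 5 rises and 3 falls. Ets2 rose 2.51-fold (from 6.78 ± 0.14 to 8.11 ± 0.098, limma adjusted p = 1.94e-05) and Zeb2, a repressor of epithelial genes, 1.85-fold. Elk3, an Ets factor that can repress, fell 1.80-fold, and Fos, given above, and Etv1 fell too. The factors were read as mRNA, and no binding was measured.

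Markers of other cell types were read beside these results. Of 10 fibroblast markers 4 were above the median in both groups and 0 were called in the limma fit (at an unadjusted p under 0.05, 1 was higher and 0 lower), and 1 was higher without PTC-209 3. Their mean log2 level was 3.49 to 3.58 over the DMSO arrays and 3.54 to 3.67 over the PTC-209 arrays. Of 9 leukocyte markers, the macrophage marker Cd68 rose from 7.42 to 10.03 and Cd3e (4.38 and 4.53) was not called. Ptprc, Adgre1, Csf1r, Itgam, Cd79a, S100a8 and Mpo were under the median. The mean log2 level of the list was 3.67 to 3.72 in DMSO and 3.95 to 4.07 with PTC-209. Cd68, the only gene called, differed by 2.61, while the median difference of the list was 0.11, so that mean rests largely on Cd68. Of 6 endothelial markers Cdh5 alone was above the median, and it fell (list 4.09 to 4.17 in DMSO and 3.96 to 4.08 with PTC-209). Cdh5 differed by -1.33, while the median difference of that list was 0.12. Without DMSO 2 that list had 1 rise. The epithelial list ran from 6.56 to 6.69 in DMSO and from 6.30 to 6.35 with PTC-209, and Krt7, Krt8, Krt18 and Krt19 fell. Cdh1 rose from 9.90 to 10.25, and did not pass when DMSO 2 or any 1 PTC-209 array was left out. The part of these marker differences in the falls of Timp1, Adam8 and the other members was not tested.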

How the data were processed

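Total RNA of A316 cells (3 arrays with PTC-209 in 0.5% DMSO, 3 with 0.5% DMSO) was measured on Affymetrix arrays. The deposited log2 values were made by the authors with RMA, per the submitters' processing notes. Its version and the build are not stated there. RMA gives arrays nearly equal distributions, so a shift of most genes would not be seen. Their range showed the scale. Groups and replicate numbers come from the sample titles. The free-text sample descriptions speak of embryos and were not used.

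Of 34760 probe sets, the block of 6568 control probes, recognised by consecutive identifiers without a gene, was left out. Differences were tested on the remaining 28192 with limma 3.58.1 in R 4.3.3 (treatment as the only term, eBayes, 4 residual and 5.27 prior degrees of freedom), checked on simulated data. Probe sets with 1 symbol (21640) named genes, those with several (1321) or none (5231) did not. All 78 members were found by gene ID in RefSeq. The number of arrays limits the precision.

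Members, lists and settings were chosen with earlier results of these data known. The text gives array values for members past the threshold whose brighter group reached the median, and for the TIMPs, Mmp2, Mmp9, Mmp14, Adam10 and Adam17. Of each partner list it names up to 4 genes past the threshold with the largest difference, and Reck, Bsg, Furin, Rhbdf1 and Rhbdf2; other genes were named after their values were seen. Protein sequences were not analysed here. Alternatives were quantile normalization again, cyclic loess, median centring, no dim probe sets, a trended robust prior, array weights, the replicate block, other choices of probe set, the control block kept, a minimum fold change of 1.2 and leaving out each array. Figures were drawn with matplotlib 3.10.9.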

Additional observations from a re-analysis of the deposited data

How the results depend on the processing

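Under the 17 alternatives the count of members that fell stayed within 8 to 12 (11 in the report) and, with each array left out in turn, within 9 to 11. The 2 rises became 1 under cyclic loess, the trended and robust prior, the replicate block, the mean over a gene's probe sets, the probe set with the second highest mean and the control block kept. Adamts9 was the call lost in each of these. With a minimum fold change of 1.2 limma's treat called 0 rises (1 at an unadjusted p under 0.05), and with each array left out the rises were 1 to 2. The partner genes gave 9 rises and 12 falls with the minimum fold change of 1.2, against 22 and 20, and 14 to 25 rises with each array left out. That setting tests against a larger difference and so calls fewer genes. The difference of Adamts9 was -0.13 on the log2 scale by its second brightest probe set. Signs also turned for 3 genes that were not called: Mmp2 (-0.18 to 0.022 with each array left out, positive without DMSO 1), Mmp9 (-0.11 to 0.067, positive without DMSO 3) and Rhbdf1 (-0.0044 under cyclic loess and -0.054 to 0.12 with each array left out, negative without DMSO 3, PTC-209 1 or PTC-209 2). The cause was not tested. Samples with the same replicate number deviated from their group means with correlations of 0.231, 0.0703 and 0.0733. Those with unlike numbers gave -0.163 to 0.105. The labels name no pairs, and the main fit did not take the numbers as pairs. Whether arrays of the same number share an effect was not tested, and the replicate block was run as an alternative. With the replicate block 11 members fell and 1 rose, the calls of Adamts9 and Mmp24 ended and Mmp3 passed. Brightness under the median of 4.33 limits what can be said of 55 members.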
